A study of Rattus norvegicus with 20 samples.

Results

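Among the rats that breathed oxygen alone, 6 arrays labelled as brain cortex carried high signal for genes of the cerebellum, and the other 4 did not. The oxygen arrays were parted by the signal of the only probe set that names Pcp2, a gene of cerebellar Purkinje cells. Arrays above 12 on the log2 scale are called cerebellum-like (oxygen replicates 5 to 10, 6 arrays) and arrays below it cortex-like (oxygen replicates 1 to 4, 4 arrays), which together are the 10 oxygen arrays of 20 in the series. Because the sets were chosen by measured signal, every difference between them is a description, and no test or p-value is given. Nearest to the threshold, the lowest cerebellum-like Pcp2 value was 13.60 (a linear signal of 12436) and the highest cortex-like value was 8.78 (a linear signal of 439).

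The series compared 10 oxygen rats with 10 rats given isoflurane, using 1 one-colour Affymetrix rat array per animal. All were male Sprague Dawley rats aged 20 weeks and weighing 250 to 300 g, with no genetic alteration named in the labels. Oxygen rats breathed pure oxygen for 15 min and recovered for 6 h before tissue was taken. Isoflurane rats received 2% isoflurane, a volatile anaesthetic, for the same time and enter only a short side-by-side paragraph. The labels name the tissue as brain cortex for all 10 oxygen arrays and give no dissection detail that separates the sets.

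The cerebellum arises from the anterior hindbrain, and its patterning factors, such as En2, differ from those of the forebrain, such as Emx1 and Fezf2. Its cortex is built mainly from densely packed granule cells, whose parallel fibres excite Purkinje cells, the sole output neurons of that cortex. The cerebral cortex is built from layered pyramidal neurons and from inhibitory interneurons that make peptides. In bulk tissue, fewer cells of a type and less RNA per cell cannot be told apart.

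Promoters are shown for genes that mark each region and for an adjacent pair, En2 and Cnpy1, because these genes define the contrast between the sets. Each is a RefSeq window of 300 bases around the gene start (build GRCr8), written 5′ to 3′ on the strand of the gene. Capitals mark any match, on either strand, to CANNTG (the E-box of basic helix-loop-helix factors), AGGTCA (the core site of nuclear receptors such as Rora) or TATAAA. The windows are chr12:6481258-6481557 (minus strand) for Pcp2, chr10:27327185-27327484 (minus) for Gabra6, chr4:7960744-7961043 (minus) for En2, chr4:7915919-7916218 (plus) for Cnpy1, chr15:15203943-15204242 (plus) for Fezf2 and chr4:119282442-119282741 (plus) for Emx1.
Pcp2: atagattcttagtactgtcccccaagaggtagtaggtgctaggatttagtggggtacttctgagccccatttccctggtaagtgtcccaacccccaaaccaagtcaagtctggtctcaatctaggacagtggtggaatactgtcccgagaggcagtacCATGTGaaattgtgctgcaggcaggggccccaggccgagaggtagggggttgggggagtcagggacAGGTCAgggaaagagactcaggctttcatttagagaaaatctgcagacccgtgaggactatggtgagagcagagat
Gabra6: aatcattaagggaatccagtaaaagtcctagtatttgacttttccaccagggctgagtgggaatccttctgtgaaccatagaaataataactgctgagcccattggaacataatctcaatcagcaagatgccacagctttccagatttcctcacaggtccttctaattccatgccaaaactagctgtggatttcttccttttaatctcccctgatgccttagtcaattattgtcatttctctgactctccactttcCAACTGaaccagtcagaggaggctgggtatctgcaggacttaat
En2: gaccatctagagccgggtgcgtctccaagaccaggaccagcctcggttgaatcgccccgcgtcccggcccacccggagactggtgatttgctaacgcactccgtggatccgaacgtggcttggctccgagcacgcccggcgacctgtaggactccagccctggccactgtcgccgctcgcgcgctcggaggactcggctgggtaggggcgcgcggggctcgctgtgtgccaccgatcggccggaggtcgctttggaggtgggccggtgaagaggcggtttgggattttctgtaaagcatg
Cnpy1: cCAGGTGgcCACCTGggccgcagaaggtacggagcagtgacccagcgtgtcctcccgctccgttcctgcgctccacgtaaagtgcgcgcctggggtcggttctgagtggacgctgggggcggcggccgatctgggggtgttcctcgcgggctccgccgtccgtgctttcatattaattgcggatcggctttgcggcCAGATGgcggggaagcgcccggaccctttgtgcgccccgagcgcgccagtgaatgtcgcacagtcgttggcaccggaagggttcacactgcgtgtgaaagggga
Fezf2: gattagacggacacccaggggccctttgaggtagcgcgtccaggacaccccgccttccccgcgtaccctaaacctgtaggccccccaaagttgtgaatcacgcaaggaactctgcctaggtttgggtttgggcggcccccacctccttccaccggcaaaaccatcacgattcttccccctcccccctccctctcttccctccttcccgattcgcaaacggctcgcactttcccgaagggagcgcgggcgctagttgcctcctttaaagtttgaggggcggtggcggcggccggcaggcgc
Emx1: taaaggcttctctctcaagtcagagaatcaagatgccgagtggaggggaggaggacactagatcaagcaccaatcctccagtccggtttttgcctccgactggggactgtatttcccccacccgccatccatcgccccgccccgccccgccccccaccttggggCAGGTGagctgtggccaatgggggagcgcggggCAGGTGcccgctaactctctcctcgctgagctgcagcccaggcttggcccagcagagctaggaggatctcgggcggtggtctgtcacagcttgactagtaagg

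In these windows the Pcp2 promoter held 1 AGGTCA and 1 CANNTG, the Gabra6 promoter 1 CANNTG, the Cnpy1 promoter 3 CANNTG and the Emx1 promoter 2 CANNTG. The En2 and Fezf2 windows held no match to any of these motifs. Over all measured genes with a promoter in the table (11733 of 14217), 65.0% held CANNTG, 12.7% held AGGTCA, 8.45% held TATAAA and 43.9% held TGGCA, the core of nuclear factor I sites, which is not marked in the sequences. Among genes called higher in cerebellum-like arrays (563 of 727 with a promoter) the shares were 63.2%, 9.95%, 6.93% and 47.8%. Among genes called lower (755 of 946) they were 66.1%, 11.7%, 11.0% and 48.3%. Every share lay less than 5 percentage points from that over all genes, and TGGCA was above it in both sets. Cbln1 and Emx2 had no entry in the promoter table.

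Pcp2 itself, which binds G protein alpha subunits, had log2 signals of 13.61, 13.89, 13.60, 13.98, 13.94 and 13.99 on oxygen arrays 5 to 10, in that order. On oxygen arrays 1 to 4 it had 8.29, 8.76, 7.63 and 8.78. Gabra6, the GABA-A receptor alpha6 subunit of granule cells, ran from 13.40 to 13.84 with a median of 13.58 on cerebellum-like arrays. On cortex-like arrays it had 8.33, 8.35, 7.00 and 8.85. The gap in Pcp2 was set by the rule, and Gabra6 too was higher on every cerebellum-like array than on any cortex-like array. Cbln1, which granule cells secrete to bind the delta2 glutamate receptor on Purkinje cells, ran from 13.09 to 13.38 (median 13.23) against 8.47, 8.51, 7.89 and 8.77. Other probe sets of Gabra6 and Cbln1 differed in the same direction, by 5.76 and 5.23 on the log2 scale.

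Fezf2, a zinc finger factor that specifies neurons projecting below the cortex, was lower on cerebellum-like arrays. It had 9.12, 8.69, 9.04 and 9.06 on oxygen arrays 1 to 4, and 1.31, 4.90, 4.01, 6.36, 6.78 and 6.96 on oxygen arrays 5 to 10. Emx1, a homeobox factor of the dorsal forebrain, had 8.90, 8.80, 8.83 and 8.93 on arrays 1 to 4, and 4.87, 6.05, 5.32, 7.28, 6.99 and 6.67 on arrays 5 to 10. The cortex-like arrays lay close together for both genes, while the cerebellum-like arrays were spread over several log2 units. Pcp2 was parted by the rule itself, and the other 4 markers did not overlap between the sets either. The label of brain cortex goes against the marker levels of arrays 5 to 10, where cerebellar genes stood far above the cortex-like level. Arrays 1 to 4 had high forebrain markers, but Pcp2, Gabra6 and Cbln1 still gave signals of 7.00 to 8.85 there.

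**Figure D1:**
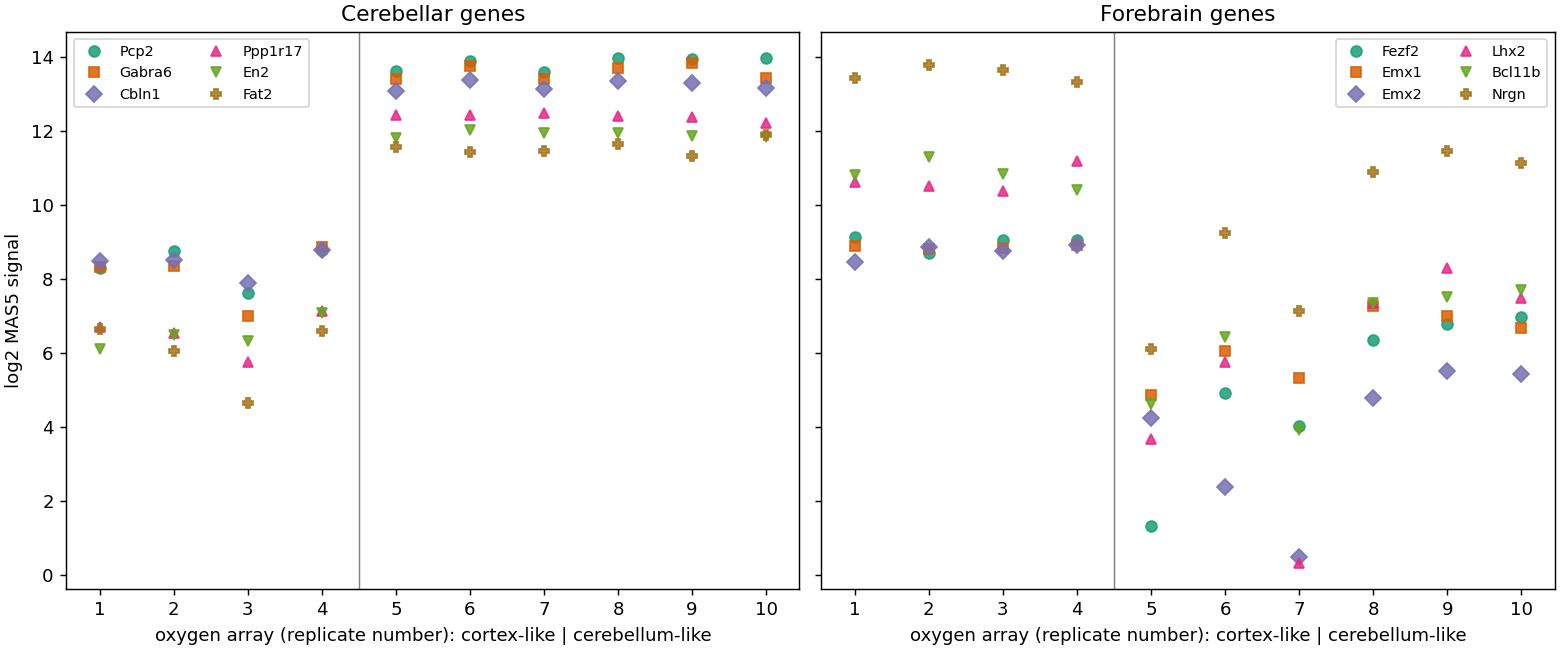
Log2 MAS5 signal of 6 cerebellar genes (left) and 6 forebrain genes (right) on each oxygen array, with 1 point per gene and array and a grey line between the cortex-like arrays (1 to 4) and the cerebellum-like arrays (5 to 10). Cerebellar genes sit in a tight band on arrays 5 to 10, while forebrain genes are spread there, lowest on arrays 5 and 7 (Nrgn 6.11 and 7.12) and highest on arrays 8 to 10 (Nrgn 10.90, 11.47 and 11.14).

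The values are MAS5 signals (array brightness after the analysis software's background correction and scaling), floored at 1 and put on the log2 scale. A difference below is the mean of the 6 cerebellum-like arrays minus the mean of the 4 cortex-like arrays, with its standard error (SE) from the spread in both sets. A gene is represented by its brightest probe set, and it is called higher or lower when the difference reached 2-fold and no array of one set overlapped the other. Array medians ran from 7.41 to 7.51 on cerebellum-like arrays and from 7.20 to 7.46 on cortex-like arrays, where 7.46 was oxygen array 1. The 3′ to 5′ ratio of the beta-actin control transcript, a measure of RNA integrity, ran from 2.28 to 2.99 and from 2.32 to 3.94. The part of these values in the differences was not tested. Detection calls were not used, so a signal at the low end cannot be told from absence of the transcript. The lower quartile of all oxygen signals was 5.45, and a fold change from a value under it has no firm base. Cerebellum-like arrays carry the higher replicate numbers in the oxygen group, so anything else that followed that numbering cannot be told apart from tissue.

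Of 31042 probe sets, 2011 were called higher in cerebellum-like arrays (6.48%) and 1679 lower (5.41%). Without oxygen replicate 1 the first count was 3105. Of 14217 genes, 727 were called higher (5.11%) and 946 lower (6.65%), a split that gives 43.5% higher. Counts in the gene lists below stand against these shares of 5.11% and 6.65%. With each array centred on its median, 30.1% of called genes were higher, since that centring moved the median difference of all genes from 0.01 to -0.17. Differences of at least 4-fold were found for 215 genes higher and 329 lower, at least 16-fold for 42 and 31, and at least 32-fold for 13 and 5. Correlations across probe sets ran from 0.934 to 0.958 between cerebellum-like arrays, from 0.927 to 0.941 between cortex-like arrays and from 0.874 to 0.913 across the sets. Since the sets were chosen on this contrast, nothing further is read from these percentages. Among called genes with several probe sets, 120 of 253 higher genes and 113 of 322 lower genes had every probe set called the same way, and 3 higher genes had probe sets called both ways.

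**Figure D2:**
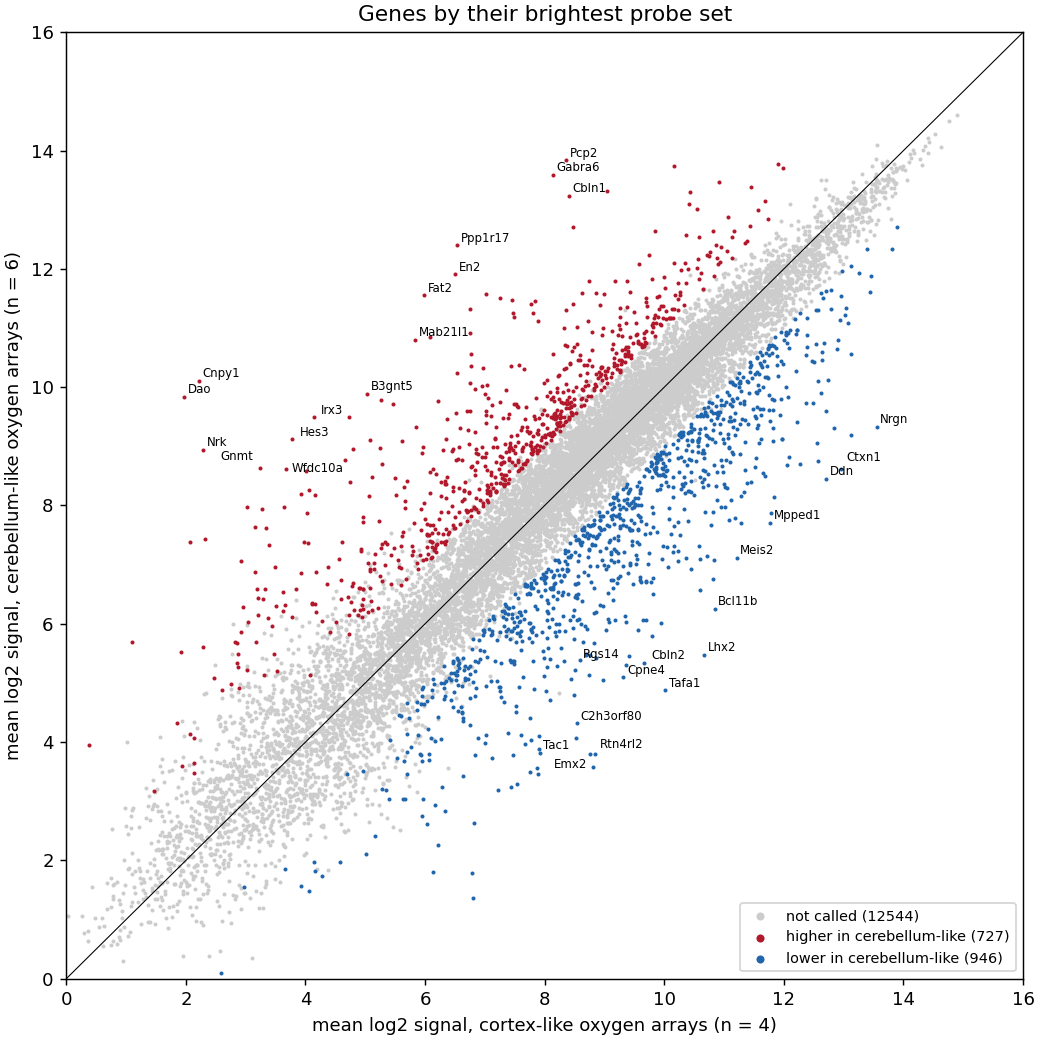
Mean log2 signal of 14217 genes in the 4 cortex-like arrays (x axis) and the 6 cerebellum-like arrays (y axis), with called genes in colour and the 15 largest differences in each direction named. The line marks equal signal, and 727 genes lie above it and 946 below it by the call.

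The largest rises among genes with a log2 mean of at least 8 in the brighter set were those of Cnpy1, Dao and Nrk. Cnpy1, a regulator of FGF signalling at the boundary of midbrain and hindbrain, had 2.31, 2.23, 1.77 and 2.57 on arrays 1 to 4 and 9.25 to 10.39 on arrays 5 to 10, a difference of 7.89 ± 0.24 (SE). Dao, the enzyme that degrades D-serine, had 0.96, 0.97, 1.75 and 4.21 against 9.27 to 10.17, a difference of 7.87 ± 0.78. Nrk, a protein kinase, differed by 6.65 ± 0.32. The cortex-like values of all 3 genes are low enough that the size of the fold is uncertain, while the sets stay far apart. Others in this group were Gnmt, which transfers a methyl group to glycine (5.40 ± 0.34), Wfdc10a (4.94 ± 0.64) and B3gnt5, a glycosyltransferase of glycolipids (4.85 ± 0.31).

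The largest falls were those of Lhx2, Tafa1 and Rtn4rl2. Lhx2, a LIM homeobox factor of the cortical primordium, had 10.62, 10.50, 10.37 and 11.20 on arrays 1 to 4 and 3.67, 5.76, 0.30, 7.36, 8.30 and 7.48 on arrays 5 to 10, a difference of -5.19 ± 1.25. Tafa1, a secreted chemokine-like protein of neurons, differed by -5.14 ± 0.92, and Rtn4rl2, a Nogo receptor homologue, by -5.03 ± 0.94. Emx2, a relative of Emx1, had 8.46 to 8.93 on cortex-like arrays and 0.47 to 5.52 on cerebellum-like arrays (-4.96 ± 0.82). The SE of these falls is larger than that of most of the 15 largest rises, as arrays 5 to 10 differed widely in these genes. Some of those values were at the low end. Cortex-like arrays were likewise spread in some of the largest rises, with a standard deviation of 1.54 for Dao and 1.67 for Irx3, though 0.33 for Cnpy1. Ctxn1 (cortexin, -4.33 ± 0.64), Ddn (dendrin, a dendritic protein, -4.25 ± 0.71), Cpne4 (a copine, -4.22 ± 0.70) and Mpped1 (-4.06 ± 0.55) were also among the 15 largest.

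Patterning transcription factors of the hindbrain and cerebellum were called higher in 22 of 25 measured members and lower in 1, with a median difference of 3.32 against 0.01 over all genes. En2, which with its paralogue En1 sets up the cerebellar territory, had 6.09, 6.49, 6.33 and 7.07 on cortex-like arrays and 11.80 to 12.04 (median 11.91) on cerebellum-like arrays, a difference of 5.41 ± 0.21. Irx3, an Iroquois homeobox factor, differed by 5.35 ± 0.84, Mab21l1 by 4.96 ± 0.19 and Tfap2b, a factor of cerebellar inhibitory progenitors, by 3.33 ± 0.21. Hes3, a transcriptional repressor active at the midbrain and hindbrain boundary, is outside that list and differed by 5.34 ± 0.44. The one member called lower was Meis2, a homeobox factor also strong in striatal neurons, with 10.98 to 11.44 on cortex-like arrays and 4.62 to 8.49 on cerebellum-like arrays (-4.10 ± 0.57). Its paralogue Meis1 was called higher, by 2.49 ± 0.12, so the 2 Meis genes moved in opposite directions.

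Several of these factors lie next to each other in the genome. In the gene order of GRCr8, En2 and Cnpy1 are direct neighbours, and both were called higher (5.41 and 7.89). The pairs Zic1 and Zic4 (3.02 and 3.05), Irx1 and Irx2 (3.38 and 3.60) and Irx3 and Irx5 (5.35 and 3.33) are also neighbours with both members called higher. Irx2 and Irx5 were low on most arrays, with cortex-like values of 1.41 to 2.42 and 0.95 to 4.13. Irx2 was called by a narrow margin, with 2.43 on oxygen array 7. Its call was lost with quantile normalization and with a pseudocount of 64. The call of Irx5 rests on the choice between its probe sets, which disagree. Without oxygen replicate 6, 7, 8 or 9 its other probe set was the brighter one, and the difference was then between -0.68 and -0.03.

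Patterning factors of the forebrain were called lower in 17 of 29 members and higher in 2, with a median of -1.75. Bcl11b, a factor of subcortical projection neurons and of striatal neurons, had 10.81, 11.29, 10.85 and 10.41 on cortex-like arrays and 3.92 to 7.69 (median 6.89) on cerebellum-like arrays, a difference of -4.59 ± 0.68. Pou3f1 differed by -3.64 ± 0.40, Mef2c by -3.10 ± 0.34 and Rorb, a nuclear receptor of layer IV neurons, by -2.13 ± 0.35, the last not called without oxygen replicate 2. The members called higher were Eomes and Neurod2. Eomes, a T-box factor of unipolar brush cells in the adult cerebellum, had 3.41 to 6.45 on cortex-like arrays and 8.03 to 9.37 on cerebellum-like arrays (4.10 ± 0.67). Neurod2, a basic helix-loop-helix factor, differed by 1.02 ± 0.21, and its call was lost without oxygen replicate 2 or 7. In isoflurane arrays Neurod2 was not called (-0.20).

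Granule cell markers were called higher in 22 of 30 members and lower in none, with a median of 2.26, and this list shares members with the hindbrain factors. Fat2, a giant cadherin of granule cells, had 6.66, 6.05, 4.63 and 6.58 on cortex-like arrays and 11.32 to 11.89 (median 11.51) on cerebellum-like arrays, a difference of 5.58 ± 0.48. Neurod1, which drives granule cell differentiation, had 9.67 to 10.63 and 13.40 to 13.96 (3.58 ± 0.27). Pax6, a paired box factor of granule cells and also of cortical progenitors, differed by 2.94 ± 0.14, and Zic1, a zinc finger factor of the same cells, by 3.02 ± 0.40. Other members called higher included Calb2 (calretinin, a calcium buffer, 4.24 ± 0.18), Reln (reelin, a secreted guidance protein, 2.47 ± 0.10), Cadps2 (a factor of dense-core vesicle release, 1.53 ± 0.07) and Etv1 (an ETS transcription factor, 1.44 ± 0.17). The spread between the cerebellum-like arrays differed among these genes, with Cadps2 running from 12.21 to 12.43 but Zic1 from 7.95 to 9.72.

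Purkinje cell markers were called higher in 20 of 31 members and lower in 2, with a median of 1.93. Without Pcp2, which set the rule, 19 of 30 were higher and the median was 1.73. Ppp1r17, a phosphatase inhibitor that is a substrate of cGMP-dependent kinase, had 6.69, 6.55, 5.75 and 7.14 on cortex-like arrays and 12.21 to 12.50 (median 12.43) on cerebellum-like arrays, a difference of 5.87 ± 0.29. Car8, a carbonic anhydrase relative that binds the IP3 receptor, had 8.86 to 9.27 and 13.12 to 13.47 (4.27 ± 0.11). Slc1a6, the glutamate transporter EAAT4, differed by 4.16 ± 0.27, and Spp1 (osteopontin) by 4.27 ± 0.86. Rora, the nuclear receptor mutated in the staggerer mouse, differed by 2.03 ± 0.28. Calb1 (calbindin), which is also a gene of upper cortical layers, had 11.22 to 11.65 and 13.16 to 13.53 (1.93 ± 0.12). Members called lower were the transcription factors Bcl11a (-2.04 ± 0.15) and Foxp2 (-1.39 ± 0.30).

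Markers of cerebellar interneurons, Golgi cells and unipolar brush cells were called higher in 9 of 21 members and lower in 2, with a median of 0.67. Apart from Calb2, Eomes and Tfap2b, already given, Tfap2a had 2.10 to 2.87 and 5.90 to 8.16 (5.11 ± 0.37) and Pax2, a factor of inhibitory interneuron precursors, 2.68 to 5.85 and 7.13 to 8.41 (3.85 ± 0.73). Kit, the receptor of stellate and basket cells, differed by 2.02 ± 0.33. Sst (somatostatin), made by Golgi cells and by cortical interneurons, was lower, with 11.76 to 11.88 against 9.13 to 10.03 (-2.20 ± 0.15).

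Bergmann glia and cerebellar astrocyte markers were called higher in 7 of 17 members and lower in 1. Gdf10, a BMP family ligand of Bergmann glia, had 6.41 to 7.19 on cortex-like arrays and 10.07 to 10.77 on cerebellum-like arrays (3.60 ± 0.20). Gli1, a target of sonic hedgehog, which Purkinje cells release, had 2.41 to 4.05 and 7.04 to 8.01 (4.28 ± 0.42). Timp4, an inhibitor of matrix proteases, differed by 2.46 ± 0.12 and Tnc (tenascin C) by 2.40 ± 0.08. These sets did not overlap for any of the 4 genes. The member called lower was Npy (-1.81 ± 0.28), a peptide of cortical interneurons.

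**Figure D3:**
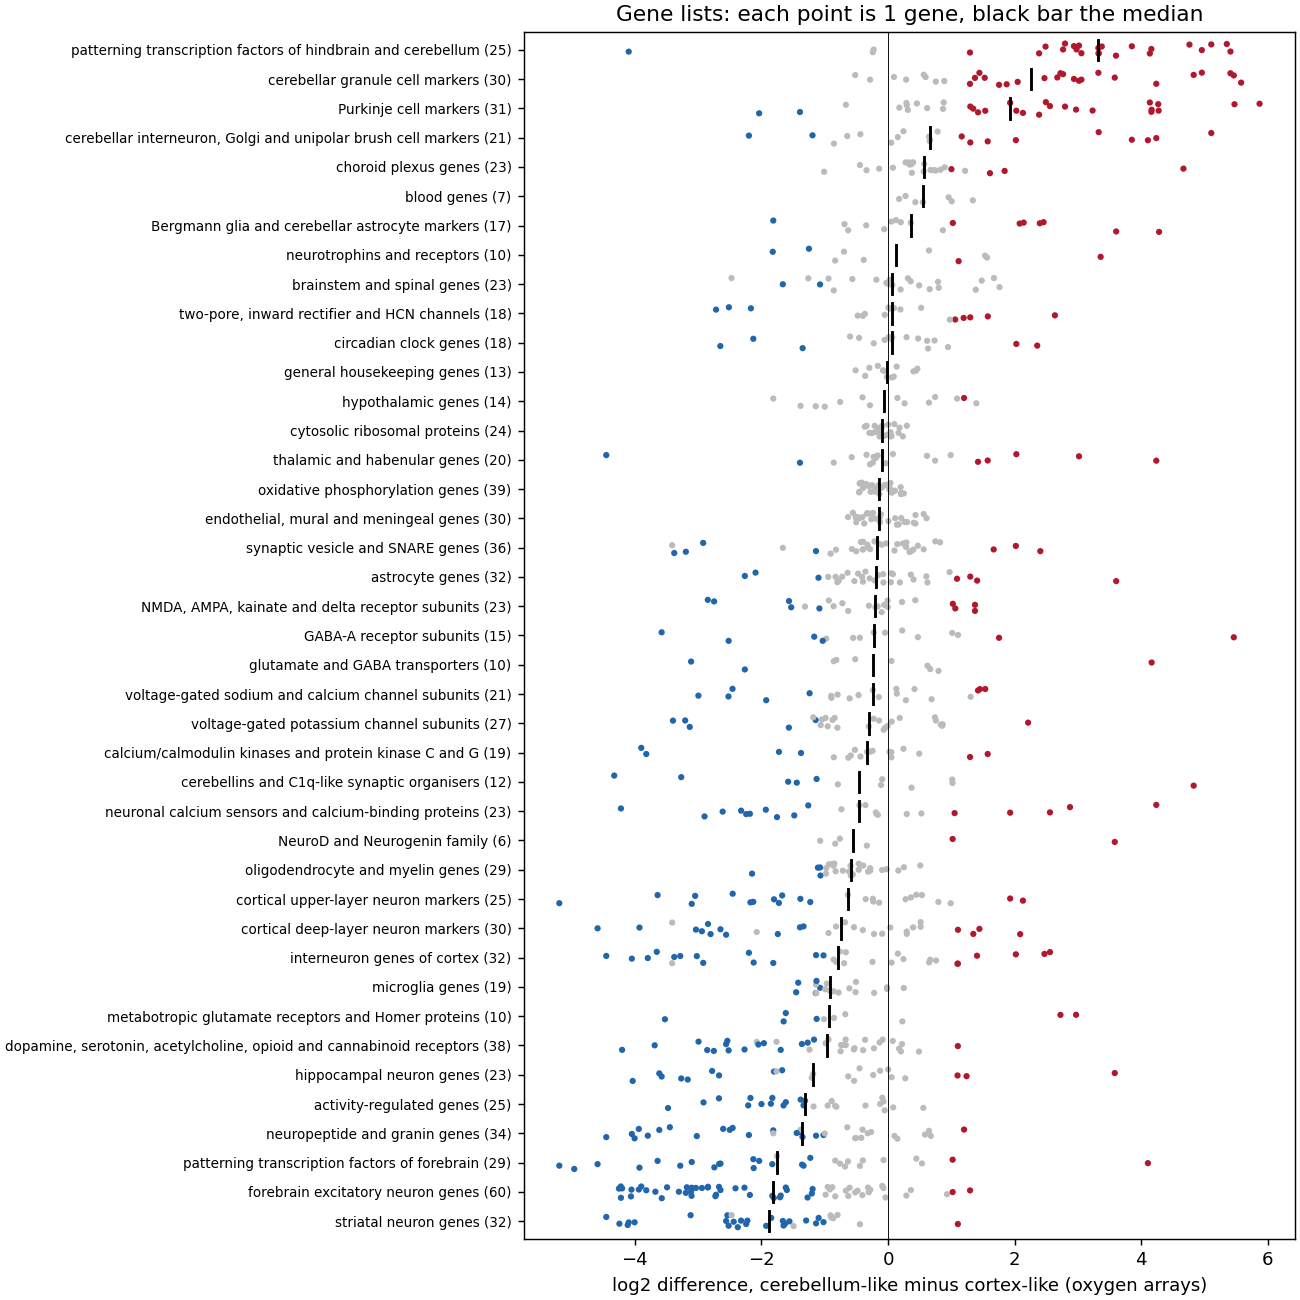
Log2 difference, cerebellum-like minus cortex-like, for each measured member of 41 gene lists (the number of members in brackets), with called genes in red (higher) or blue (lower), others in grey, and a black bar at each median. Hindbrain factors (median 3.32), granule cell markers (2.26) and Purkinje cell markers (1.93) lie at the top, and striatal (-1.89) and forebrain excitatory genes (-1.82) at the bottom.

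Genes of forebrain excitatory neurons were called lower in 38 of 60 members and higher in 2, with a median of -1.82. Nrgn (neurogranin), which binds calmodulin in dendritic spines, had 13.44, 13.78, 13.64 and 13.33 on cortex-like arrays and 6.11, 9.25, 7.12, 10.90, 11.47 and 11.14 on arrays 5 to 10, a difference of -4.22 ± 0.93. Camk2a, the calmodulin kinase of excitatory synapses, had 12.14 to 12.96 and 7.26 to 9.89 (-3.82 ± 0.48). Slc30a3, which loads zinc into synaptic vesicles, differed by -3.11 ± 0.30, and Cck (cholecystokinin) by -3.94 ± 0.72. Rgs14, a regulator of G protein signalling, differed by -4.05 ± 0.63. The members called higher were Camk2d (1.30 ± 0.06) and Neurod2, the latter not without oxygen replicate 2 or 7. Upper-layer markers were called lower in 12 of 25 and higher in 2 (Calb1 and Rgs8), and deep-layer markers lower in 11 of 30 and higher in 4 (Tmem163, Etv1, Bcl6 and Nxph4, the last not without oxygen replicate 3).

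Interneuron genes of the cerebral cortex split by gene. Of 32 members 13 were called lower and 6 higher. Vip (vasoactive intestinal peptide) had 10.61 to 11.02 on cortex-like arrays and 5.54 to 8.22 on cerebellum-like arrays (-4.05 ± 0.45), and Npy1r, a receptor for neuropeptide Y, 9.53 to 9.59 and 4.87 to 6.74 (-3.65 ± 0.27). Dlx1, a homeobox factor of forebrain inhibitory neurons, differed by -3.28 ± 0.70. The members called higher included Pvalb (parvalbumin, 2.56 ± 0.08), Reln, Kit and Cnr1, the cannabinoid receptor of parallel fibres (1.10 ± 0.13). Cnr1 was not called with median centring or the mean of a gene's probe sets. Pvalb had 10.75 to 11.03 and 13.23 to 13.59, so it was bright on all arrays and still did not overlap.

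Neuropeptide and granin genes were called lower in 18 of 34 members and higher in 1, with a median of -1.37. Tac1, the precursor of substance P, had 9.05, 8.66, 8.82 and 7.53 on cortex-like arrays and 2.12 to 5.35 (median 4.42) on cerebellum-like arrays, a difference of -4.45 ± 0.60. Pdyn (prodynorphin) differed by -4.00 ± 0.63, Grp by -3.61 ± 0.83 and Vgf, a granin family protein, by -2.50 ± 0.23. Penk (proenkephalin) was lower by a smaller amount (-1.02 ± 0.16), and its call was lost without oxygen replicate 2, 6 or 8. It was also lost with quantile normalization and with a pseudocount of 64. The member called higher was Gal (galanin), with 6.72 to 7.60 against 8.08 to 8.93 (1.20 ± 0.24).

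Striatal neuron genes were called lower in 24 of 32 members and higher in 1 (Cnr1), with a median of -1.89. With median centring or the mean of a gene's probe sets, no member was called higher. Drd1 and Drd2, the dopamine receptors of the direct and indirect striatal pathways, differed by -2.56 ± 0.30 and -2.54 ± 0.21. Ptpn5, a striatum-enriched phosphatase, differed by -3.12 ± 0.27, Gpr6 by -4.24 ± 0.39 and Adora2a, an adenosine receptor of the indirect pathway, by -2.52 ± 0.31. Which cells or tissue gave the signal of this list was not tested. On cortex-like arrays Drd2 had 8.75 to 9.44 and Adora2a 8.70 to 9.76. Hippocampal neuron genes were called lower in 9 of 23 and higher in 3, among them C1ql3 (-3.27 ± 0.59) on the lower side and Neurod1 on the higher side. Thalamic and habenular genes were called higher in 5 of 20 and lower in 2, hypothalamic genes higher in 1 of 14 and lower in none, and brainstem and spinal genes higher in none of 23 and lower in 2. The 5 thalamic genes higher (Rora, Prkcd, Calb2, Zic1 and Cacna1g) are all also members of the lists of cerebellar cells. The hypothalamic share higher (7.14%) and the brainstem share lower (8.70%) lie near the 5.11% and 6.65% over all genes. Single arrays moved these small counts, to 2 hypothalamic genes higher and 1 lower without oxygen replicate 1, 1 lower without replicate 2, 4 brainstem genes lower without replicate 10 and 1 without replicate 9. Without replicate 3 or 7, 2 brainstem genes were called higher, and 1 without replicate 8. Medians of the brainstem (0.07), hypothalamic (-0.07) and thalamic (-0.10) lists changed sign under 6, 6 and 4 alternative settings.

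The GABA-A receptor is a pentamer whose alpha subunits differ between regions. Of 15 measured subunits 2 were called higher and 4 lower. Gabrd, the delta subunit that joins alpha6 in extrasynaptic receptors of granule cells, had 10.16 to 10.78 on cortex-like arrays and 11.90 to 12.27 on cerebellum-like arrays (1.75 ± 0.16). Gabra5, an extrasynaptic subunit of hippocampal and cortical pyramidal neurons, had 10.49 to 10.87 and 5.14 to 8.59 (-3.58 ± 0.51), and Gabra2 9.92 to 10.31 and 6.51 to 8.53 (-2.52 ± 0.32). Gabrb1 differed by -1.03 ± 0.26 and Gabrr2, a rho subunit, by -1.17 ± 0.42, and without oxygen replicate 4 neither was called, which left 2 subunits lower. The call of Gabrb1 was also lost without oxygen replicate 2, 8, 9 or 10, and that of Gabrr2 without replicate 6. Gabrb2, the neighbour of Gabra6 in the genome, was not called (0.47).

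NMDA, AMPA, kainate and delta receptor genes, with their auxiliary subunits, were called higher in 4 of 23 and lower in 5. Grin2c, the NMDA subunit of mature granule cells, had 9.68 to 10.06 and 10.92 to 11.50 (1.37 ± 0.13), while Grin2b, the subunit of forebrain synapses, had 7.99 to 8.90 and 4.89 to 6.80 (-2.75 ± 0.36). Grin1, the subunit shared by NMDA receptors, was not called (-0.16). The AMPA subunit Gria4 was higher (1.02 ± 0.20) and Gria3 lower (-1.53 ± 0.29). Among kainate subunits Grik2 (1.37 ± 0.15) and Grik1 (1.06 ± 0.13) were higher and Grik5 lower (-1.08 ± 0.11). The AMPA receptor auxiliary subunits Cacng3 (-2.85 ± 0.33) and Cacng8 (-1.56 ± 0.25) were lower. Gria4 lost its call without oxygen replicate 3 or 9 and Grik5 without oxygen replicate 6. With median centring Gria4 and Grik1 were not called, which left 2 members higher.

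Metabotropic glutamate receptors and Homer proteins, which tether them at the postsynapse, divided by paralogue, with 2 of 10 called higher and 4 lower. Grm4, the presynaptic receptor of parallel fibres, had 8.67 to 9.20 and 11.23 to 12.01 (2.72 ± 0.19), and Homer3, the Homer protein of Purkinje cells, 8.40 to 9.06 and 11.34 to 11.86 (2.97 ± 0.17). Grm5, the group I receptor of forebrain neurons, had 9.42 to 11.02 and 5.37 to 8.10 (-3.52 ± 0.63), and Homer1 11.11 to 11.71 and 9.63 to 10.27 (-1.61 ± 0.18). Grm3 (-1.65 ± 0.27) and Grm7 (-1.13 ± 0.25) were also lower, the latter not without oxygen replicate 1.

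Cerebellins and related C1q-like proteins organise synapses by bridging presynaptic neurexins to postsynaptic receptors. Of 12 members 1 was called higher (2 without oxygen replicate 1, 3, 8 or 10) and 5 lower. Cbln1 (4.83 ± 0.19) and its paralogue Cbln2 stood at opposite ends. Cbln2 had 9.75, 9.64, 9.46 and 9.82 on cortex-like arrays and 4.60, 5.83, 1.89, 6.38, 6.62 and 6.74 on arrays 5 to 10 (-4.33 ± 0.77). Nlgn1, a postsynaptic neuroligin, differed by -1.44 ± 0.16, Adgrb2, an adhesion receptor, by -1.58 ± 0.09 and C1ql1, the climbing fibre ligand that neurons of the inferior olive make, by -1.13 ± 0.20.

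Calcium sensors and calcium-binding proteins were called higher in 5 of 23 and lower in 10. The buffers Calb2, Pvalb and Calb1 were higher, as given above, and so was Hpcal1, a visinin-like sensor of Purkinje cells, with 9.90 to 10.72 against 12.98 to 13.57 (2.87 ± 0.21). Its relatives Hpca (hippocalcin, -2.18 ± 0.16), Hpcal4 (-2.61 ± 0.23) and Ncald (neurocalcin delta, -2.24 ± 0.26) were lower, as were Necab1, Necab2 and Necab3 (-1.93 ± 0.41, -1.75 ± 0.15 and -2.90 ± 0.34). Among potassium channel interacting proteins Kcnip4 was higher (1.05 ± 0.09) and Kcnip2 lower (-2.32 ± 0.20). Kcnip4 was not called with median centring, nor were Kcnip2 and Necab2 with the mean of a gene's probe sets. Calb1 and Necab1, which lie 1 gene apart, were called in opposite directions.

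**Figure D4:**
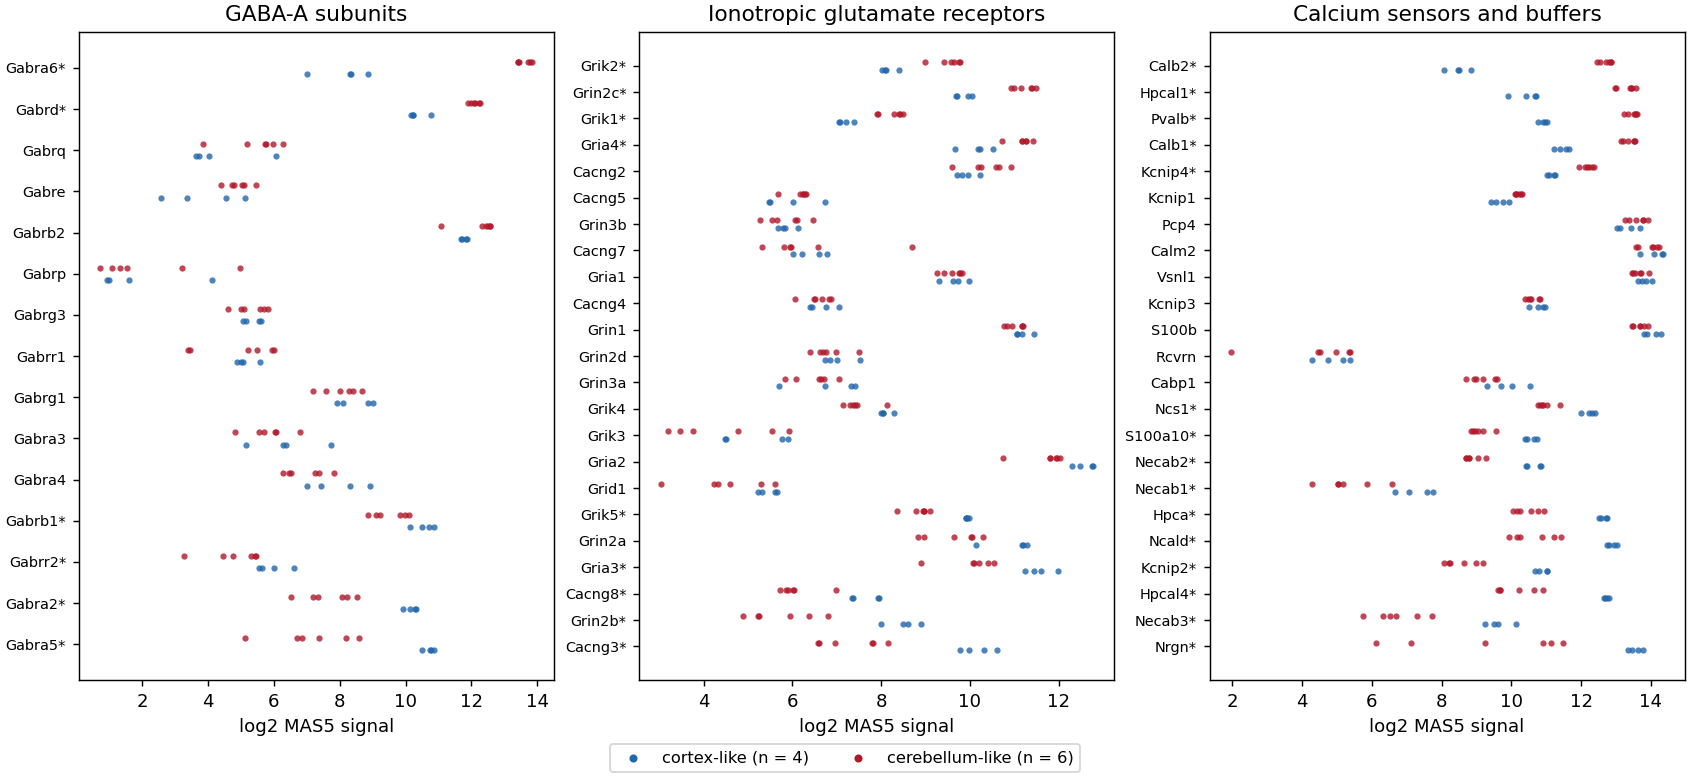
Log2 MAS5 signal of every measured member of 3 gene families on the 4 cortex-like (blue) and 6 cerebellum-like (red) oxygen arrays, ordered by difference, with called genes marked by an asterisk. Gabra6, Gabrd, Grin2c, Calb2 and Hpcal1 lie to the right in cerebellum-like arrays, and Gabra5, Grin2b, Cacng3 and Nrgn to the left.

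Calmodulin-dependent kinases and protein kinases C and G were called higher in 2 of 19 and lower in 4. Those shares were 10.5% and 21.1%, against 5.11% and 6.65% over all genes. Camk2a and Camkv, a kinase-like protein of spines (11.61 to 11.94 against 5.91 to 9.42, -3.90 ± 0.62), were lower, Camk2b was not called (0.05) and Camk2d was higher. Prkcd, the protein kinase C delta, had 8.41 to 9.05 and 10.24 to 10.51 (1.57 ± 0.14). Prkg2, a membrane-bound cGMP-dependent kinase, was lower (-1.72 ± 0.22), and so was Camkk1 (-1.37 ± 0.20). Of 10 glutamate and GABA transporters 1 was called higher (Slc1a6, with 1 more without oxygen replicate 10) and 2 lower, Slc30a3 and the astrocytic transporter Slc1a2 (-2.26 ± 0.17).

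Ion channel genes were called in both directions. Voltage-gated potassium channel subunits were called lower in 5 of 27 (8 with median centring) and higher in 1 (3.70% against 5.11% over all genes, and 3 without oxygen replicate 4), Kcnc1, a fast channel of granule and Purkinje cells (2.21 ± 0.12). Kcnq5 (-3.40 ± 0.32), Kcns1 (-3.20 ± 0.38) and Kcna4 (-3.13 ± 0.30) were the largest falls among them. Two-pore, inward rectifier and HCN channels were called higher in 5 of 18, among them the inward rectifier Kcnj12 (2.64 ± 0.24) and the leak channel Kcnk3 (1.58 ± 0.19), and lower in 3 (the 5 higher were 3 with quantile normalization or median centring), among them Kcnj4 (-2.72 ± 0.25) and Kcnk2 (-2.51 ± 0.16). Of 21 sodium and calcium channel subunits 3 were called higher and 5 lower. Cacna1a, the P/Q-type channel of Purkinje cells, had 7.13 to 7.63 and 8.31 to 9.27 (1.54 ± 0.18), and Scn3b, a sodium channel beta subunit, 11.35 to 11.40 and 7.44 to 9.29 (-3.00 ± 0.30).

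Receptors for dopamine, serotonin, acetylcholine, opioids and cannabinoids were called lower in 15 of 38 and higher in 1 (Cnr1), with a median of -0.96. The 15 lower were 8 with a pseudocount of 64, 6 with a filter at the 40th percentile and 2 at the 60th. Many members were dim, and the list mean ran from 5.57 to 6.25 on cerebellum-like arrays. No member was called higher with median centring or the mean of a gene's probe sets. Adra1d, an alpha1 adrenoceptor in the same list, had 9.45 to 9.93 and 4.80 to 7.70 (-2.99 ± 0.43). The muscarinic receptor Chrm1 had 7.04 to 7.81 and 1.19 to 5.95 (-4.20 ± 0.70), the latter a range where absence cannot be told apart. Of 10 neurotrophin and neurotrophic receptor genes 2 were higher (1 without oxygen replicate 5 or 7) and 2 lower. Ret, the GDNF receptor kinase, had 6.65 to 7.46 and 9.87 to 10.75 (3.36 ± 0.23), and Gfra2, a co-receptor of Ret, 9.49 to 10.08 and 7.84 to 8.11 (-1.82 ± 0.13). A receptor and a co-receptor of one ligand family thus differed in opposite directions. Ntrk2, the BDNF receptor, was lower (-1.25 ± 0.15), but not called with the mean of a gene's probe sets. Of 36 synaptic vesicle and SNARE genes 3 were called higher, among them Unc13c, a priming factor (2.41 ± 0.21), and 4 lower, among them Stx1a (syntaxin 1A, -3.19 ± 0.26), Synpr (synaptoporin, -3.38 ± 0.26) and Syt5 (-2.92 ± 0.27). The shares of that list (8.33% and 11.1%) lie near the 5.11% and 6.65% over all genes.

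Activity-regulated genes were called lower in 13 of 25 and higher in none, with a median of -1.31. Egr1 had 12.10 to 12.61 on cortex-like arrays and 10.26 to 11.01 on cerebellum-like arrays (-1.83 ± 0.15), Egr2 7.39 to 9.20 and 4.71 to 6.05 (-2.91 ± 0.43) and Nr4a3 9.83 to 10.20 and 6.41 to 8.13 (-2.67 ± 0.26). Arc, a dendritic capsid-like protein induced by activity, varied widely among cortex-like arrays, from 8.75 to 11.12, against 8.10 to 8.62 (-1.65 ± 0.51). Circadian clock genes were called higher in 2 of 18 and lower in 3 (11.1% and 16.7%, against 5.11% and 6.65% over all genes). Per3, a clock repressor, had 4.92 to 7.71 and 8.29 to 9.09 (2.36 ± 0.60), and Npas2, a partner of Bmal1 in the forebrain, 10.77 to 11.23 and 7.60 to 8.98 (-2.65 ± 0.23).

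Called members were fewer in the glial and vascular lists than in the lists of cerebellar and cortical neurons. Astrocyte genes were called higher in 4 of 32, led by Gdf10, and lower in 3, Slc1a2, Cldn10 (-2.09 ± 0.18) and Mfge8 (-1.10 ± 0.15), while with arrays centred on their medians 2 were higher and 5 lower. The astrocyte shares of 12.5% and 9.4% stand against 5.11% and 6.65% over all genes. Oligodendrocyte and myelin genes were called lower in 4 of 29 and higher in none, with a median of -0.59, and 7 were lower without oxygen replicate 1. The count was 8 with quantile normalization, 9 with arrays centred on their medians and 1 with a 4-fold call. The mean log2 signal over that list ran from 9.86 to 10.07 on cerebellum-like arrays and from 10.39 to 10.59 on cortex-like arrays. Cspg5 (neuroglycan C, -2.15 ± 0.36) and Olig1 (-1.11 ± 0.13) were among the 4. Microglia genes were called lower in 5 of 19 and higher in none, with a median of -0.92. Without oxygen replicate 10 the count was 9, without replicate 1 it was 8, and with either quantile normalization or median centring it was 9. With a pseudocount of 64 it fell to 2, and with a 4-fold call to 0. The list mean ran from 7.39 to 7.88 and from 8.25 to 8.52. P2ry12, a purinergic receptor of resting microglia, had 9.62 to 10.57 and 7.85 to 8.84 (-1.45 ± 0.26), and Ctss (cathepsin S) 12.59 to 13.43 and 11.25 to 12.08 (-1.42 ± 0.23). No member of the endothelial, mural and meningeal list (30) was called.

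Ribosomal protein genes (24), oxidative phosphorylation genes (39) and general housekeeping genes (13) had no called member. Their medians were -0.10, -0.14 and -0.02, and those of the ribosomal and housekeeping lists changed sign under some settings. Blood genes (7) had no called member either (2 higher without oxygen replicate 7), though the list mean ran from 7.54 on oxygen array 7 to 10.46 on oxygen array 9. Choroid plexus genes were called higher in 4 of 23, and in 2 with quantile normalization, median centring, a pseudocount of 64, a filter at the 40th percentile or the mean of a gene's probe sets. Ttr (transthyretin), the leading product of the choroid plexus, was not called, and ran from 7.70 to 13.71 on cerebellum-like arrays and from 9.39 to 13.66 on cortex-like arrays. Called members were Otx2 (4.67 ± 1.27), a homeobox factor also of granule cell precursors, with 0.00 to 5.69 against 6.65 to 8.98, Kcne2 (1.84 ± 0.66), Ecrg4 (1.61 ± 0.21) and Ace (1.00 ± 0.33). The list mean was highest on oxygen array 5 (8.46), where Ace was 9.79 against 7.94 to 8.33 on the other cerebellum-like arrays. Ace was not called without oxygen replicate 1, 4 or 5. The part of choroid plexus or blood RNA in other differences was not tested.

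The cerebellum-like arrays were more uniform for cerebellar genes than for forebrain genes. For the 15 genes with the largest falls, the linear signal of each array was set as a percent of the cortex-like mean of the same gene. The median over these genes was 1.44% on oxygen array 5, 4.21% on array 6, 1.07% on array 7, 8.54% on array 8, 16.2% on array 9 and 12.8% on array 10. On array 7 the highest of the 15 genes stood at 2.46% (Mpped1), and on array 10 the lowest stood at 8.47% (Tafa1), so the gene ranges of these arrays did not overlap. The reverse measure, for the 15 largest rises on cortex-like arrays as a percent of the cerebellum-like mean, was 2.13% on oxygen array 1, 2.31% on array 2, 1.10% on array 3 and 3.15% on array 4. These genes were chosen by the same differences, so the percentages describe the arrays. Their cause was not tested.

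**Figure D5:**
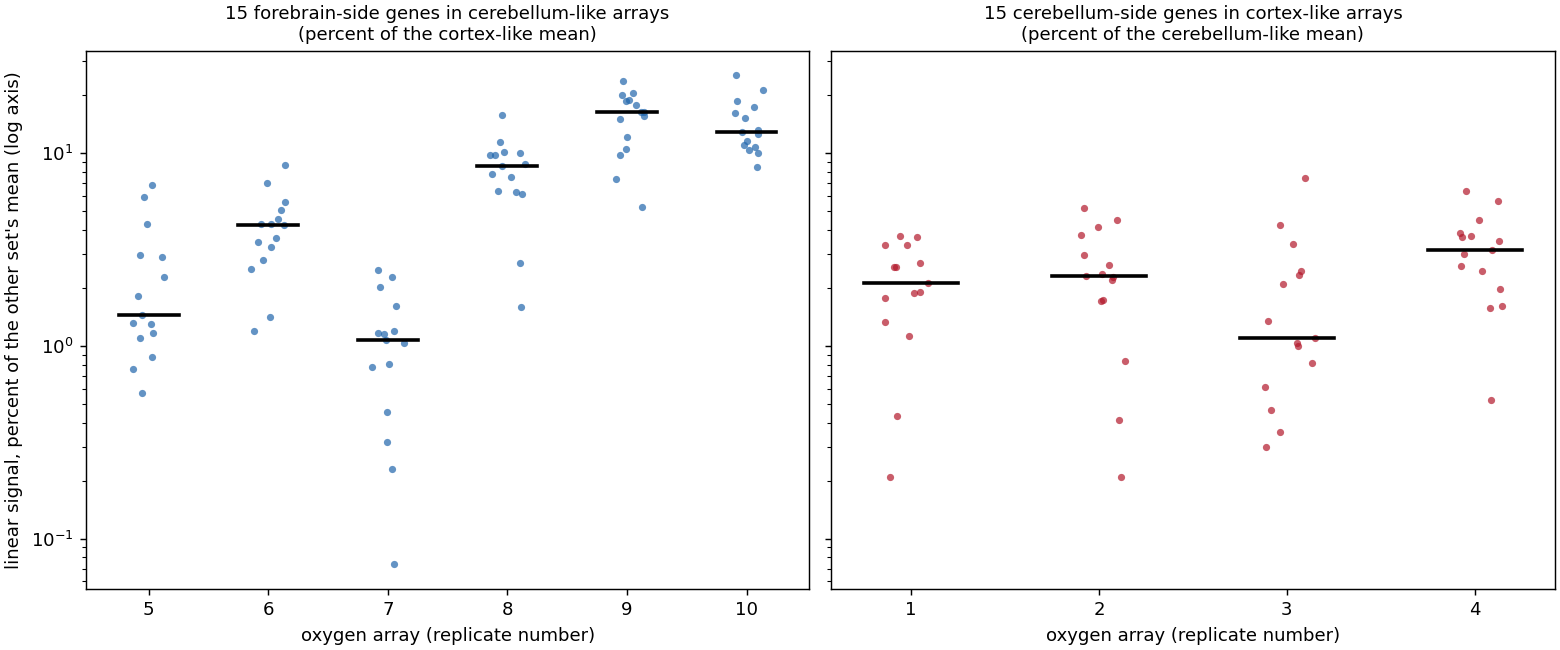
Linear signal, on a log axis, as a percent of the mean of the opposite set, for the 15 genes with the largest falls on each cerebellum-like oxygen array (left) and the 15 with the largest rises on each cortex-like oxygen array (right), with 1 point per gene and a bar at each median. Medians on the left run from 1.07% (array 7) to 16.2% (array 9), and on the right from 1.10% (array 3) to 3.15% (array 4).

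The same Pcp2 threshold parted the isoflurane arrays into 5 cerebellum-like and 5 cortex-like arrays, which played no part in the oxygen differences, although they too were chosen by Pcp2 signal. Isoflurane array 10 stood apart among the cortex-like arrays, with Pcp2 at 10.67 and Gabra6 at 10.70 against 4.46 to 5.93 and 2.97 to 4.81 on the other 4. Gabra6 differed there by 8.57 and Cbln1 by 5.99, and Fezf2 by -5.21 and Emx1 by -2.76, against 5.46, 4.83, -3.93 and -2.67 in oxygen arrays. Without isoflurane array 10 the isoflurane differences were 9.92, 6.67, -5.32 and -2.75. On the other 4 cortex-like isoflurane arrays Pcp2 and Gabra6 lay below oxygen arrays 1 to 4 (7.63 to 8.78 and 7.00 to 8.85). The cause of that gap was not tested. Of the 727 genes higher in oxygen arrays 449 (61.8%) were also called higher in isoflurane arrays, which is 64.7% of the 694 called there. Of the 946 lower genes 723 (76.4%) were called lower there, 68.3% of 1059. Without isoflurane array 10 the shared counts were 456 of 920 called higher there (49.6%) and 719 of 1268 called lower there (56.7%). No gene had opposite calls. Of the 129 genes picked by the naming rule 117 were called the same way and 127 had the same sign. The exceptions in sign were Neurod2 (1.02 in oxygen arrays and -0.20 in isoflurane arrays) and Per3 (2.36 and -0.13), with -0.40 for both genes in isoflurane arrays without array 10. On cortex-like isoflurane arrays Per3 had 7.39 to 9.31, while on cortex-like oxygen arrays it had 4.92 to 7.71. Whether these differences differ between the groups was not tested.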

How the data were processed

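The deposited values are linear array intensities, MAS5 signals. The submitters' processing notes name Affymetrix Expression Console, and versions are not given in the sources used here. Each array had a mean of 500.1 to 500.2 after trimming 2% from each end, so a difference is relative to the average signal of its array. Of 31099 probe sets, 57 controls were left out. Values under 1 (1072 in oxygen arrays) were floored at 1 before the log2 step, and no probe set was filtered out. By the platform annotation 20826 probe sets had 1 symbol, 436 had several and 9780 had none, and symbols were updated by gene ID through a GRCr8 gene table. Groups came from sample titles.

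The members, the 41 gene lists (940 symbols, 148 not matched to a measured gene) and the alternatives were chosen with earlier results of these data known. The naming rule took the 15 largest rises and falls with a log2 mean of at least 8 in the brighter set, 3 called members per list by the same minimum, all called members of the GABA-A, NMDA to delta, metabotropic, cerebellin, NeuroD, calcium sensor and kinase lists, and the 5 markers. Other genes in the text are list members or paralogues picked after their values were seen. The calling step was run on simulated data with planted shifts and normal noise. That run does not bear on the choice of sets by Pcp2 or on floored signals. The number of arrays limits the precision. Python 3.11.15 with numpy 2.4.6, pandas 2.3.3 and matplotlib 3.10.9 was used.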

Additional observations from a re-analysis of the deposited data

Results flagged for a closer look

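In 438 groups of 4 or 6 arrays (a gene, a list mean or an array measure within a set), 29 had 1 array far from the others, and chance alone flags about 1 in 20 such groups. Oxygen array 10 was the array that stood apart most often. It was low for Cnpy1 (9.25 against 10.13 to 10.39), B3gnt5 (8.80 against 9.94 to 10.41), Nrk (8.36), Gria3 (8.90), Gria4 (10.73), Nlgn1 (8.53), Etv1 (12.52), Gabrb2 (11.09 against 12.31 to 12.57) and P2ry12 (7.85 against 8.55 to 8.84). It was high for Per3 (9.09 against 8.29 to 8.53) and for the mean over circadian clock genes (9.81 against 9.48 to 9.58). Oxygen array 5 was high for Ace (9.79), and oxygen array 9 for Cacng8 (6.98 against 5.73 to 6.03). Oxygen array 7 was low for Ttr (7.70 against 12.10 to 13.71), Dlx1 (2.22 against 5.46 to 6.91) and Irx2 (2.43 against 5.47 to 6.76), and oxygen array 8 for Tfap2a (5.90 against 7.49 to 8.16).

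Among cortex-like arrays, oxygen array 4 was low for C1ql3 (11.44 against 12.25 to 12.32) and Homer1 (11.11 against 11.66 to 11.71) and high for Gabrd (10.78 against 10.16 to 10.22). Oxygen array 1 was high for Grm7 (8.22 against 7.30 to 7.40) and Tfap2a (2.87 against 2.10 to 2.20), low for Bcl6 (9.56 against 9.90 to 9.92), low for the mean over oligodendrocyte and myelin genes (10.39 against 10.56 to 10.59), and had the highest array median (7.46 against 7.20 to 7.23). Oxygen array 3 was high for Mpped1 (12.04) and low for Prkg2 (7.20 against 7.87 to 7.96), and oxygen array 2 was low for Neurod2 (8.40 against 9.16 to 9.20) and high for Penk (12.36 against 11.79 to 11.84). Gabrb2 and Ttr were not called. In the other genes the sets still did not overlap, which the call requires.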

How the results depend on the processing

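No paired analysis was possible because the results come from no test and the sets hold different replicate numbers. Removing an array can only ease the no-overlap part of a call, so counts then tend to lie above the main ones. Leaving out 1 oxygen array at a time gave 725 to 874 genes higher, 949 to 1031 lower, 2048 to 3105 probe sets higher and 1697 to 1827 lower. The highest of these, 3105, came without oxygen replicate 1, whose array median stood apart. A pseudocount of 64 gave 1149 probe sets higher. Keeping only probe sets above the 60th percentile of mean signal left fewer to call, with 792 probe sets higher, 771 lower, 429 genes higher and 487 lower. A 4-fold call gave 726 and 608 probe sets and 215 and 329 genes. Allowing the sets to overlap gave 4024 and 2620 probe sets and 1137 genes higher. Quantile normalization, arrays centred on medians, a pseudocount of 16, a filter at the 40th percentile and the mean of a gene's probe sets left the counts within 1.5 times. Quantile normalization put 35.9% of called genes on the higher side and moved the median of all genes to -0.05. Of the called genes in the text only Irx5 changed sign, to -0.68, -0.66, -0.03 and -0.34 without oxygen replicates 6, 7, 8 and 9, and its highest value with 1 array left out was 3.94. Over all genes in the text and these alternatives, 2726 values moved by less than the spread between arrays and 142 by more. Ace, Neurod2, Gabrr2, Grik1 and Nxph4 lost their calls both with quantile normalization and with a pseudocount of 16. Median centring lost the calls of Ace, Gria4, Grik1, Kcnip4, Neurod2, Cnr1, Kcne2 and Nxph4. The mean of a gene's probe sets lost those of Ace, Gabrr2, Kcnip2, Necab2, Ntrk2, Cnr1, Irx5 and Kcne2, among others. A pseudocount of 64 lost 18 calls. Medians of 12 lists changed sign under at least 1 setting, among them the GABA-A list without oxygen replicate 7 and the lists of upper-layer and interneuron genes under the 60th percentile filter. Counts per list stayed within 1.5 times in 1398 cases and moved further in 160. Chosen after seeing the data, leaving out isoflurane replicate 10 kept the signs of the isoflurane differences given.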
